A study of Homo sapiens with 4 samples.

Results

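The genes described here are 44 genes of cell division: cyclins and kinases of mitotic entry, the ubiquitin machinery of mitotic exit, spindle and cytokinesis factors, and proteins that condense chromosomes. They were chosen by name, with earlier results of these data known, so the background shares set beside their counts below are descriptive. The names were matched to Ensembl gene identifiers through a symbol table, and all 44 were found among the 62710 genes measured. Messenger RNA was sequenced from HGC27 and MKN45, established human gastric cancer cell lines, of an undifferentiated and a poorly differentiated tumour. The groups were HGC27 with periplocymarin, HGC27 with the DMSO vehicle, MKN45 with periplocymarin and MKN45 with DMSO, at 0.3 µM periplocymarin or 0.1% DMSO for 24 h, in RPMI-1640 with fetal bovine serum. Periplocymarin is a cardiac glycoside, a plant steroid of the class that blocks the sodium-potassium pump. Each group was 1 library of 1 cell line, so no difference within a line has a replicate check, and the libraries record neither cell cycle phase nor cell number.

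Entry into mitosis is driven by CDK1 bound to A-type and B-type cyclins, held back by the kinases WEE1 and PKMYT1 and released by CDC25 phosphatases. Polo and Aurora kinases then build the spindle, and the anaphase-promoting complex, a ubiquitin ligase activated by CDC20 and later by FZR1, destroys cyclin B and securin so that chromosomes part and the cell divides. Most of these messages are known to be low early in the cell cycle and to peak in G2 and mitosis, a rhythm set at the promoter by NF-Y on CCAAT boxes and by MuvB complexes on the cell cycle genes homology region (CHR). In bulk RNA, a larger share of cells in G2 and mitosis cannot be told apart from more mRNA in each such cell.

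The promoters are shown for the CCAAT and CHR letters named above. No other motifs were searched for, and the genes were chosen by name as genes of cell division, so the shares below are descriptive. RefSeq promoter windows on GRCh38.p14, from 250 bases before to 50 bases after the annotated start, were matched by symbol for 36 of the 44 genes. Windows were searched on both strands for CCAAT and for the CHR letters TTTGAA or TTCGAA, the second of which reads the same on both strands. The letters that matched are in capitals, and where the match lies on the other strand they read ATTGG or TTCAAA. The pair CKS2 and CKS1B rose after periplocymarin and each hold a CHR match close to the start, ANLN had the largest fitted value of the 44, HMMR had differences of opposite sign in the lines, and MYBL2 did not pass the test and holds neither motif in this window. These windows are examples: CCNB2 and PLK1, which did not pass the test, also hold a CHR match that begins 29 bases before the start. The windows are CKS2 at chr9:89310945-89311244, plus strand, CKS1B at chr1:154974431-154974730, plus strand, ANLN at chr7:36389612-36389911, plus strand, HMMR at chr5:163460382-163460681, plus strand and MYBL2 at chr20:43666864-43667163, plus strand.
CKS2: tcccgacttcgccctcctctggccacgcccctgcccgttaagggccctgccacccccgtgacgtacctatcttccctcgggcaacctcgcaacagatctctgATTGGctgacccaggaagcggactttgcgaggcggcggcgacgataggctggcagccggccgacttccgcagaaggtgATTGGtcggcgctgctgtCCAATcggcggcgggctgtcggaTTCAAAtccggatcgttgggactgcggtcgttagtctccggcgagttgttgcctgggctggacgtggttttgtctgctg
CKS1B: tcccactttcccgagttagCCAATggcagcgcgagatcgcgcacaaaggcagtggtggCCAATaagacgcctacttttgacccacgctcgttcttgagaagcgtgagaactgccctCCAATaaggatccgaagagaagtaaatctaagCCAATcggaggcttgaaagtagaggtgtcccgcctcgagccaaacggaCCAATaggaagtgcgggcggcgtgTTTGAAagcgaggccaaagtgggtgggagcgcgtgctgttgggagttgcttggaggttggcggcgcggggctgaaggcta
ANLN: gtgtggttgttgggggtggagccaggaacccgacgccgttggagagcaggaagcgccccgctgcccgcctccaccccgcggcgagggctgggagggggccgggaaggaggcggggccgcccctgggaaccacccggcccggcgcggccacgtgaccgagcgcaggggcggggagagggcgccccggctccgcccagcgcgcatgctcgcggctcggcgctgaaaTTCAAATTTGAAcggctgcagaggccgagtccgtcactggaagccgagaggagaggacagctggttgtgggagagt
HMMR: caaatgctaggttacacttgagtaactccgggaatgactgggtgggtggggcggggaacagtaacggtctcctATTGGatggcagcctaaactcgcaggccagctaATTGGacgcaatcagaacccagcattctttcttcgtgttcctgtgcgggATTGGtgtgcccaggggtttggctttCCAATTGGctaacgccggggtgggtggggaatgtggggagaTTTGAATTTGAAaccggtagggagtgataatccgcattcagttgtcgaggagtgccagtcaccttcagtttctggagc
MYBL2: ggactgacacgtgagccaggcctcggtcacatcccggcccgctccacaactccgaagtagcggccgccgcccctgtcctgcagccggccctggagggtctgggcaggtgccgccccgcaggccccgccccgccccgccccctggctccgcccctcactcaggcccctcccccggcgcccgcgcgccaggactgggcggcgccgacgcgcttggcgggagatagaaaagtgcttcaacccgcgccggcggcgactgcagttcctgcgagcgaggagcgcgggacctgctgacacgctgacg
The CHR match begins 29 bases before the start in CKS2 and 30 bases before it in CKS1B. ANLN and HMMR each carry 2 CHR matches joined end to end, beginning 26 and 20 bases before the start in ANLN and 28 and 22 bases before it in HMMR.

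CHR letters were in 25 of the 36 windows (69.4%), against 16.6% of the 27305 promoters in the table. Among the 9125 promoters of genes that entered the test below, 10.9% held them. CCAAT was in 27 of 36 (75%), against 35.7% of all promoters and 37.2% of those of tested genes. At least 2 CCAAT matches were in 18 of 36 (50%), against 11.3% and 14.4%. Both motifs together were in 20 of 36 windows (55.6%), against 6.58% and 4.67%. A CHR match that begins in the last 50 bases before the start was in 14 of 36 (38.9%), against 2.74% of all promoters. Members with such a match that rose in the test below were CKS1B, CKS2, ANLN, PRC1 and MKI67. Those that did not pass it were CCNB2, PLK1, INCENP, CDCA8, ESPL1, HMMR, GTSE1, SMC2 and NCAPG. Among members that rose in the test below and had a window, 12 of 15 held CHR letters, and among those that did not pass it, 13 of 21 did. A match describes letters in a window and is not a bound site, and the promoters of genes that were not matched, WEE1, PKMYT1, AURKA, TPX2, BIRC5, FOXM1, UBE2C and RACGAP1, were not analysed here.

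The libraries held 24822517 reads in treated and 26674737 in vehicle HGC27, and 27545152 in treated and 36321186 in vehicle MKN45, recovered from the deposited FPKM (reads or fragments per kilobase of gene length, scaled to library size). The 44 genes had 323 to 45214 reads each per library. Clopper-Pearson 95% intervals of the treated to vehicle ratio reached a median of 0.063 and at most 0.20 to either side of the centre on the log2 scale. They cover counting error only, at the deposited scaling, and would shift with another scaling. Cell type markers differed between the lines: 6 epithelial genes summed to 3801 and 2319 FPKM in treated and vehicle MKN45 and to under 1 FPKM in either HGC27 library. The 7 mesenchymal genes summed to 868 and 638 FPKM in treated and vehicle HGC27, and to 0.575 and 1.13 FPKM in treated and vehicle MKN45. In treated and vehicle HGC27 they ran unevenly, from CDH2 at 0 and 0.043 FPKM and FN1 at 2.45 and 2.63 FPKM to VIM at 380 and 406 FPKM. The 4 endothelial genes summed to under 1 FPKM in every library, and of the 6 leukocyte genes LYZ stood out at 125 FPKM in treated and 161 FPKM in vehicle MKN45.

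Across the 44 genes the treated libraries were mostly higher than the vehicle libraries. The median gene stood at 68.5 FPKM in treated and 29.97 FPKM in vehicle HGC27, and at 53.7 FPKM in treated and 27.6 FPKM in vehicle MKN45. In HGC27, 42 of 44 were above vehicle, against 55.4% of the 11821 genes that averaged 1 FPKM or more in that line. At least 2-fold higher there were 27 of 44, against 9.72% of those genes and 19% of genes that averaged 10 FPKM or more. In MKN45, 41 of 44 were above vehicle, against 53.5% of 11895 genes, and 17 of 44 at least 2-fold, against 8.21% of those genes and 13.9% from 10 FPKM up. None of the 44 was at least 2-fold lower in either line, where 10.4% and 8.94% of genes in HGC27 and MKN45 were (3.59% and 4.78% from 10 FPKM up). The fold threshold and all differences within a line are on log2(FPKM + 1), treated minus vehicle, which understates the change of low genes.

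Over both lines, 19 of the 44 genes rose and none fell, and 25 did not pass the test (limma on log2(FPKM + 1) with a term for the line, Benjamini-Hochberg adjusted p under 0.05 over 12353 genes). The background was 3.43% of all genes called higher and 3.17% called lower, and 8.02% and 1.82% among genes that averaged 10 FPKM or more. The median fitted log2 fold of the 44 was 1.04, against 0.062 for all genes tested, and at an unadjusted limma p under 0.05 there were 35 of 44 genes, against 28.4% of all. An arm holds 2 lines, which leaves each gene 1 residual degree of freedom, and fitted values below are log2 with limma's moderated standard error after ±, which draws mostly on other genes. With quantile normalization 6 of the 44 rose (median 0.60), against 180 of all 12353 genes. With a floor of 10 FPKM 30 of the 39 genes left rose, against 1055 of all 4453 genes. Limma there drew more on other genes, at prior degrees of freedom of 111 against 8.53 in the main fit. No gene in the table passed when low genes were kept in or when the line term was dropped. With limma-voom on recovered reads 28 rose, against 951 of all 12060 genes. With library read totals 18 rose, against 369 of all 12353 genes, at a median of 0.76 against -0.16 for all genes.

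**Figure D1:**
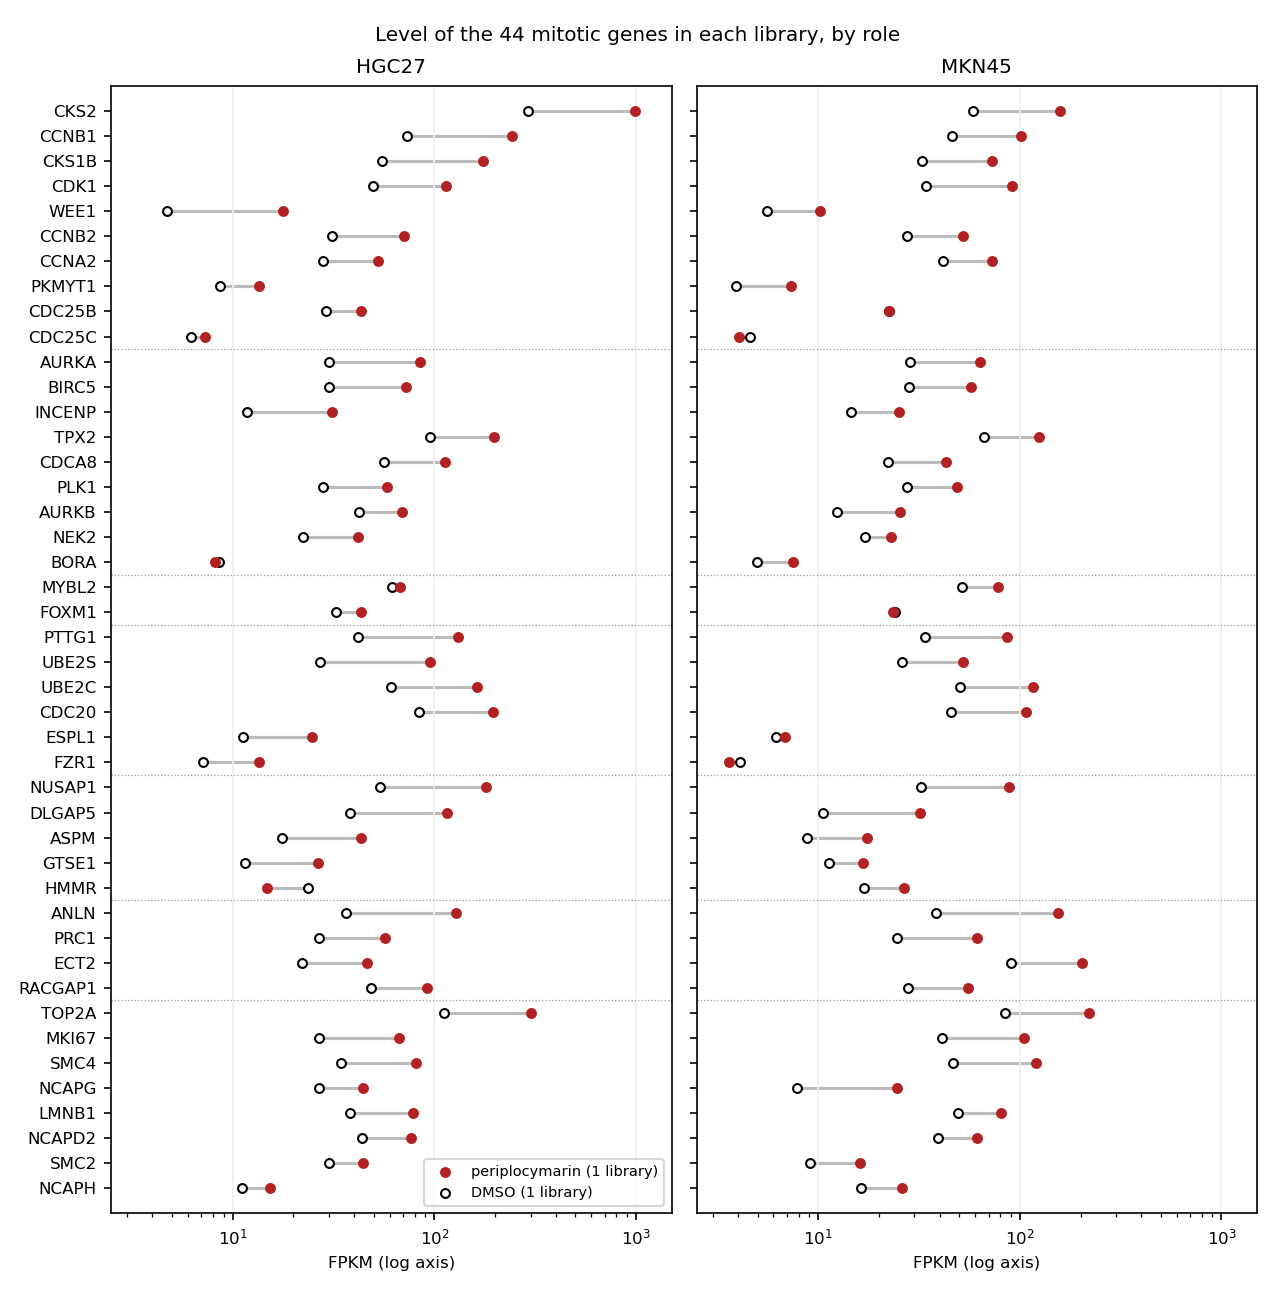
FPKM of the 44 genes on a log axis, with HGC27 on the left and MKN45 on the right. Filled red points are the periplocymarin library, open points the DMSO library, a grey bar joins them, and dotted lines separate the roles. Red points lie to the right of open points for 42 of 44 genes in HGC27 and 41 of 44 in MKN45.

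Among CDK1, its cyclins and their switches, 5 of 10 genes rose, none fell and 5 did not pass. CKS2, a small adaptor subunit that docks cyclin-CDK complexes on phosphorylated partners, was at 994 FPKM in treated and 289.9 FPKM in vehicle HGC27, and 158 FPKM in treated and 58.4 FPKM in vehicle MKN45. It rose by 1.60 ± 0.26 (limma adjusted p = 0.0247), and in each line the treated library was above the vehicle library, with HGC27 above MKN45 in either state. Its paralog CKS1B, which also helps SCF-SKP2 target p27 for destruction, was at 174 FPKM in treated and 54.97 FPKM in vehicle HGC27, and 72.8 FPKM in treated and 32.5 FPKM in vehicle MKN45. CKS1B rose by 1.39 ± 0.28. The processed pseudogene CKS1BP3 was listed at 23.3 FPKM in treated and 10.99 FPKM in vehicle HGC27, so some CKS1B reads may have been split between copies.

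Cyclin B1 (CCNB1), the main mitotic partner of CDK1, was at 242 FPKM in treated and 73.5 FPKM in vehicle HGC27, and 101 FPKM in treated and 45.9 FPKM in vehicle MKN45. CCNB1 rose by 1.41 ± 0.28 and CDK1 itself by 1.29 ± 0.27 (limma adjusted p = 0.028 and 0.0308). CDK1 was at 114 FPKM in treated and 49.4 FPKM in vehicle HGC27, and 91.6 FPKM in treated and 34.2 FPKM in vehicle MKN45, and for both genes each treated library was above both vehicle libraries. Cyclin A2 (CCNA2), which acts from S phase on and is destroyed before cyclin B, and cyclin B2 (CCNB2) were higher in both lines without passing, at fitted values of 0.83 ± 0.27 and 1.03 ± 0.27 (limma adjusted p = 0.0851 and 0.0535). The ratio of CCNB1 to CCNA2 FPKM was 4.63 in treated and 2.61 in vehicle HGC27, and 1.39 in treated and 1.11 in vehicle MKN45.

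Among the brakes and accelerators of CDK1, 1 gene passed. WEE1, the kinase that inhibits CDK1 by tyrosine phosphorylation, rose by 1.24 ± 0.32 (limma adjusted p = 0.0496, at the edge of the threshold). It was at 17.8 FPKM in treated and 4.74 FPKM in vehicle HGC27, and 10.3 FPKM in treated and 5.55 FPKM in vehicle MKN45, so the treated library of each line was above both vehicle libraries and the HGC27 difference of 1.71 was the larger. PKMYT1, the membrane-bound kinase that phosphorylates CDK1 beside WEE1, was at 13.5 FPKM in treated and 8.67 FPKM in vehicle HGC27, and 7.31 FPKM in treated and 3.93 FPKM in vehicle MKN45 and did not pass (0.67 ± 0.28, limma adjusted p = 0.159). The activating phosphatase CDC25B was at 43.3 FPKM in treated and 28.995 FPKM in vehicle HGC27, and 22.3 FPKM in treated and 22.3 FPKM in vehicle MKN45, with a fitted value of 0.28 ± 0.29 (limma adjusted p = 0.545). CDC25C, the phosphatase that joins CDK1 in its switch-like activation, was at 7.32 FPKM in treated and 6.19 FPKM in vehicle HGC27, and 4.07 FPKM in treated and 4.597 FPKM in vehicle MKN45, with the lines on opposite sides of 0 and a fitted value of 0.034 ± 0.29. At the deposited scaling, the 95% counting interval of the CDC25C ratio excluded 0 on the log2 scale in HGC27 (0.078 to 0.40). It included 0 in MKN45 (-0.38 to 0.024). The sign of CDC25C depended on the scaling, as its fitted value was -0.21 with library read totals. With no test of the difference between the genes, CDC25C to WEE1 FPKM stood at 0.412 in treated and 1.31 in vehicle HGC27, and at 0.397 in treated and 0.828 in vehicle MKN45.

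Of 9 genes of the Polo, Aurora and NEK2 kinases and their partners, 2 rose, none fell and 7 did not pass. AURKA, the spindle pole kinase, was at 85.1 FPKM in treated and 29.9 FPKM in vehicle HGC27, and 63.7 FPKM in treated and 28.4 FPKM in vehicle MKN45, and rose by 1.31 ± 0.28 (limma adjusted p = 0.0319). Survivin (BIRC5), a subunit of the chromosomal passenger complex, was at 72.6 FPKM in treated and 30.03 FPKM in vehicle HGC27, and 57.4 FPKM in treated and 28.3 FPKM in vehicle MKN45, and rose by 1.12 ± 0.27 (limma adjusted p = 0.0449). For both genes the vehicle libraries of the lines were close to each other and the treated libraries lay well above them. The other passenger subunits did not pass: the scaffold INCENP had a fitted value of 1.04 ± 0.29, borealin (CDCA8) of 0.96 ± 0.27 and the kinase AURKB of 0.84 ± 0.28 (limma adjusted p = 0.0599, 0.0611 and 0.0882), all higher in both lines. AURKB was at 69.2 FPKM in treated and 42.1 FPKM in vehicle HGC27, and 25.4 FPKM in treated and 12.4 FPKM in vehicle MKN45. TPX2, which activates AURKA on the spindle, and PLK1, the Polo kinase of mitotic entry and cytokinesis, were likewise higher in both lines without passing (0.97 ± 0.26 and 0.92 ± 0.27, limma adjusted p = 0.0572 and 0.0693). NEK2, a centrosome kinase, had a fitted value of 0.65 ± 0.28. BORA, which presents PLK1 to AURKA for activation in G2, had the smallest value of this group (0.22 ± 0.30), and was at 8.19 FPKM in treated and 8.52 FPKM in vehicle HGC27, and 7.46 FPKM in treated and 4.98 FPKM in vehicle MKN45. BORA was therefore level in HGC27 at a difference of -0.052 and higher in MKN45 at 0.50.

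Neither transcription factor on the list passed. FOXM1, the forkhead factor that binds with MuvB to drive G2 and mitotic genes, was at 43.4 FPKM in treated and 32.5 FPKM in vehicle HGC27, and 23.4 FPKM in treated and 24.1 FPKM in vehicle MKN45. Its fitted value was 0.18 ± 0.28 (limma adjusted p = 0.699), higher in HGC27 by 0.41 and close to vehicle in MKN45 at -0.037. MYBL2 (B-MYB), which joins MuvB in S phase, was at 67.7 FPKM in treated and 61.6 FPKM in vehicle HGC27, and 77.99 FPKM in treated and 51.4 FPKM in vehicle MKN45, with a fitted value of 0.36 ± 0.28 (limma adjusted p = 0.413). FOXM1 and MYBL2 turned to -0.25 and -0.12 with quantile normalization, and FOXM1 overlaps RHNO1 and ITFG2, whose reads cannot be told apart from it where the counting did not use strand.

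Of 6 genes of the anaphase-promoting complex pathway, 4 rose, none fell and 2 did not pass. Securin (PTTG1), the separase inhibitor that the complex destroys at anaphase, was at 131 FPKM in treated and 41.9 FPKM in vehicle HGC27, and 86.7 FPKM in treated and 33.8 FPKM in vehicle MKN45, and rose by 1.48 ± 0.27 (limma adjusted p = 0.0257). The ubiquitin-conjugating enzyme UBE2C, which starts the chains, was at 164 FPKM in treated and 61.03 FPKM in vehicle HGC27, and 116 FPKM in treated and 50.8 FPKM in vehicle MKN45, and rose by 1.29 ± 0.27 (limma adjusted p = 0.0306). Its partner UBE2S, which extends them, was at 95.5 FPKM in treated and 27.02 FPKM in vehicle HGC27, and 52.1 FPKM in treated and 25.99 FPKM in vehicle MKN45, and rose by 1.38 ± 0.30. All treated libraries of these 3 genes exceeded all vehicle libraries. UBE2S overlaps RPL28 and has the pseudogene UBE2SP1, listed at 5.71 FPKM in treated and 4.54 FPKM in vehicle HGC27, so its value carries that uncertainty.

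Of the activators of the complex, CDC20 passed and FZR1 did not, and the difference between them was not tested. CDC20, which acts up to anaphase, was at 196 FPKM in treated and 83.9 FPKM in vehicle HGC27, and 107 FPKM in treated and 45.3 FPKM in vehicle MKN45, with differences of 1.22 in HGC27 and 1.22 in MKN45, and rose by 1.22 ± 0.26 (limma adjusted p = 0.0331). FZR1 (CDH1), which takes over at mitotic exit and holds G1, was at 13.5 FPKM in treated and 7.11 FPKM in vehicle HGC27, and 3.63 FPKM in treated and 4.11 FPKM in vehicle MKN45, and did not pass (0.35 ± 0.32, limma adjusted p = 0.505). FZR1 was higher in HGC27. In MKN45 the counting interval of its ratio lay below 0 at the deposited scaling, from -0.33 to -0.028 on the log2 scale. Another scaling would shift this interval. The CDC20 to FZR1 ratio was 14.5 in treated and 11.8 in vehicle HGC27, and 29.5 in treated and 11.04 in vehicle MKN45. Separase (ESPL1), the protease that cuts cohesin, was at 24.7 FPKM in treated and 11.3 FPKM in vehicle HGC27, and 6.81 FPKM in treated and 6.202 FPKM in vehicle MKN45. Its difference was 1.06 in HGC27 and 0.12 in MKN45, and it did not pass (limma adjusted p = 0.252).

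Of 5 spindle genes, 2 rose, none fell and 3 did not pass. NUSAP1, which bundles microtubules around chromatin, was at 179.5 FPKM in treated and 53.7 FPKM in vehicle HGC27, and 88.3 FPKM in treated and 32.5 FPKM in vehicle MKN45, and rose by 1.57 ± 0.27 (limma adjusted p = 0.0247). DLGAP5 (HURP), which stabilizes kinetochore fibres, was at 116 FPKM in treated and 38.02 FPKM in vehicle HGC27, and 32.1 FPKM in treated and 10.6 FPKM in vehicle MKN45, and rose by 1.55 ± 0.27. ASPM, a spindle pole protein, and GTSE1, a microtubule plus-end protein, were higher in both lines without passing (1.08 ± 0.28 and 0.83 ± 0.29, limma adjusted p = 0.0511 and 0.107). HMMR (RHAMM), a hyaluronan receptor that also works at spindle poles with TPX2, was the gene of this group below vehicle in a line. HMMR was at 14.8 FPKM in treated and 23.5 FPKM in vehicle HGC27, and 26.5 FPKM in treated and 16.9 FPKM in vehicle MKN45, with differences of -0.63 (HGC27) and 0.62 (MKN45), so the treated library was the lower of the pair in HGC27 and the higher in MKN45. Counting intervals of its ratio lay wholly below 0 in HGC27 (-0.76 to -0.57) and wholly above 0 in MKN45 (0.57 to 0.73), and the fitted value was -0.0058 ± 0.34. The antisense gene HMMR-AS1, which overlaps it, was listed at 0 in all 4 libraries.

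Of 4 cytokinesis genes, 3 rose, none fell and 1 did not pass. Anillin (ANLN), which anchors actin, myosin and septins in the contractile ring, had the largest fitted value of all 44 genes at 1.89 ± 0.27 (limma adjusted p = 0.0158). It was at 128 FPKM in treated and 36.3 FPKM in vehicle HGC27, and 155 FPKM in treated and 38.6 FPKM in vehicle MKN45, so the vehicle libraries of the lines nearly coincided and each treated library was over 3-fold higher. PRC1, which bundles antiparallel microtubules of the midzone, was at 56.6 FPKM in treated and 26.7 FPKM in vehicle HGC27, and 61.1 FPKM in treated and 24.7 FPKM in vehicle MKN45, and rose by 1.16 ± 0.27. ECT2, the exchange factor that activates RhoA at the equator, was at 46.2 FPKM in treated and 22.2 FPKM in vehicle HGC27, and 202 FPKM in treated and 90.2 FPKM in vehicle MKN45, and rose by 1.09 ± 0.27 (limma adjusted p = 0.0399 for PRC1 and 0.0449 for ECT2). RACGAP1, which recruits ECT2 to the midzone as part of centralspindlin, was at 91.5 FPKM in treated and 48.4 FPKM in vehicle HGC27, and 55.3 FPKM in treated and 27.9 FPKM in vehicle MKN45, and did not pass at 0.93 ± 0.27 (limma adjusted p = 0.0649). Another gene model on the PRC1 locus, AC068831.7, was listed at 45.0 FPKM in treated and 10.9 FPKM in vehicle HGC27, and the counting could split reads between the models.

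Of 8 genes of chromosome structure, 3 rose, none fell and 5 did not pass. Topoisomerase II alpha (TOP2A), which untangles sister DNA, was at 301 FPKM in treated and 112 FPKM in vehicle HGC27, and 219 FPKM in treated and 83.9 FPKM in vehicle MKN45, and rose by 1.40 ± 0.26 (limma adjusted p = 0.0257). MKI67, the Ki-67 protein that coats mitotic chromosomes, was at 67.03 FPKM in treated and 26.7 FPKM in vehicle HGC27, and 104 FPKM in treated and 41.2 FPKM in vehicle MKN45, and rose by 1.31 ± 0.27. The condensin ATPase SMC4 was at 80.8 FPKM in treated and 34.3 FPKM in vehicle HGC27, and 119.9 FPKM in treated and 46.7 FPKM in vehicle MKN45, and rose by 1.28 ± 0.27 (limma adjusted p = 0.0296 for MKI67 and 0.0317 for SMC4). All 3 were higher in treated than in vehicle cells of each line by at least 2-fold.

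The other condensin I subunits did not pass the test. SMC2, which pairs with SMC4, was at 44.1 FPKM in treated and 29.9 FPKM in vehicle HGC27, and 16.1 FPKM in treated and 9.07 FPKM in vehicle MKN45 (0.65 ± 0.28, limma adjusted p = 0.159). The regulatory subunit NCAPG had differences of 0.71 (HGC27) and 1.53 (MKN45), at 44.2 FPKM in treated and 26.7 FPKM in vehicle HGC27, and 24.5 FPKM in treated and 7.82 FPKM in vehicle MKN45 (1.12 ± 0.31, limma adjusted p = 0.0569). NCAPD2 and the kleisin subunit NCAPH had fitted values of 0.72 ± 0.27 and 0.54 ± 0.28 (limma adjusted p = 0.121 and 0.235). NCAPH was at 15.4 FPKM in treated and 11.1 FPKM in vehicle HGC27, and 26.1 FPKM in treated and 16.4 FPKM in vehicle MKN45. Lamin B1 (LMNB1), a filament of the nuclear envelope that breaks down in mitosis, had a fitted value of 0.85 ± 0.27 (limma adjusted p = 0.0825) and was higher in both lines.

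**Figure D2:**
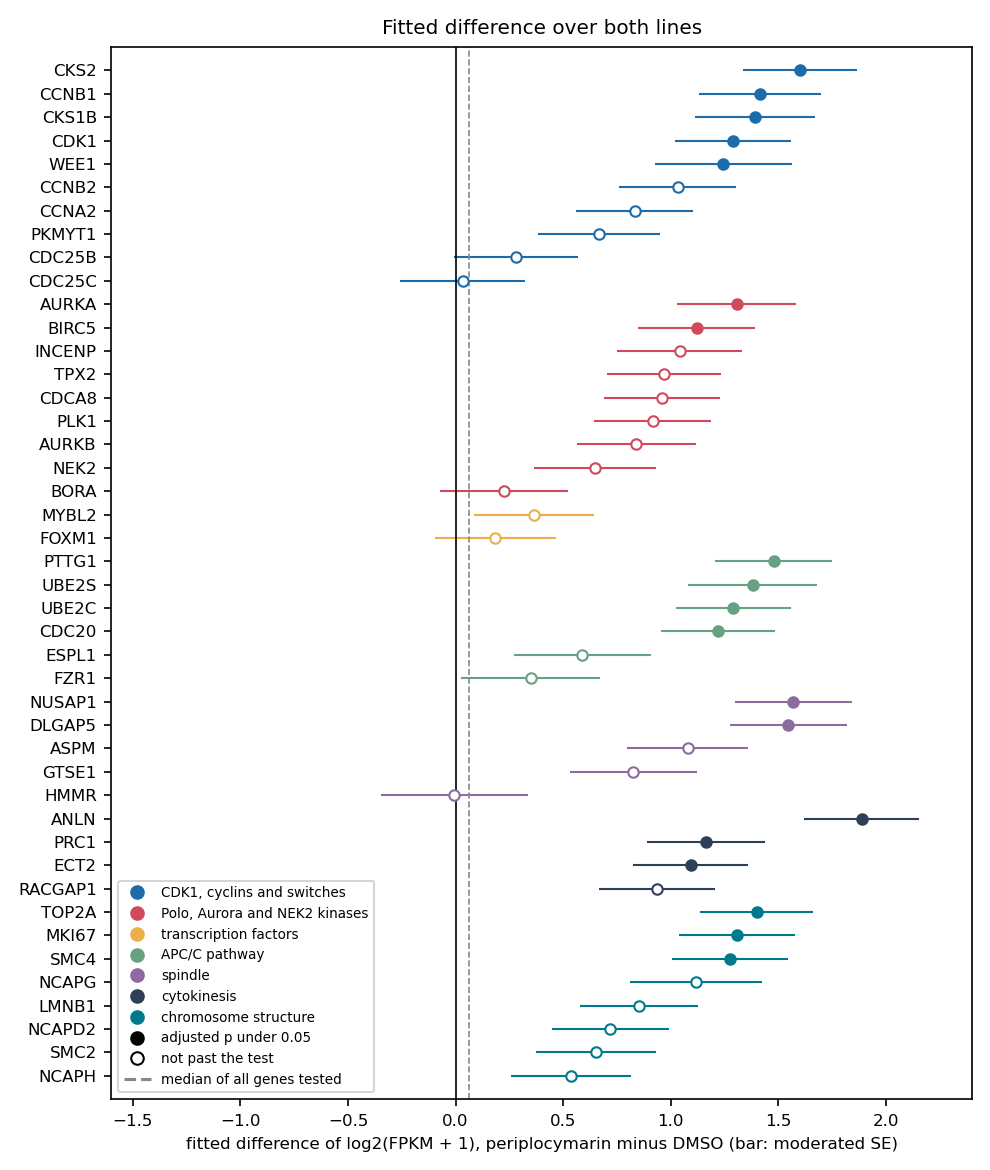
Fitted difference of log2(FPKM + 1), periplocymarin minus DMSO, for the 44 genes grouped by role, with bars for limma's moderated standard error. Filled points are the 19 genes at an adjusted p under 0.05, open points the other 25, and the dashed line is the median of all genes tested (0.062). Values run from -0.0058 for HMMR to 1.89 for ANLN.

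The lines were then set side by side. Of the 44 genes, 16 were at least 2-fold higher in each line, against 3.38% of the 10071 genes measured in both, and 39 were above vehicle in each line, against 44.5%. Their median differences were 1.06 (HGC27) and 0.92 (MKN45), and 28 of 44 genes (63.6%) had the larger difference in HGC27, against 52% of all genes tested and 58.4% of those that averaged 10 FPKM or more. This order depended on the scaling: with the same total of values per library the medians were 0.91 (HGC27) and 1.03 (MKN45), and 18 of 44 genes (40.9%) had the larger difference in HGC27, against 37.6% of all genes tested. For the 4 cytokinesis genes the difference was larger in MKN45 as deposited and under the same total, quantile normalization and library read totals. The widest gaps on the HGC27 side were FZR1 (0.98), ESPL1 (0.95), WEE1 (0.93) and UBE2S (0.81), and on the MKN45 side HMMR (-1.25) and NCAPG (-0.82), each as the HGC27 difference minus the MKN45 difference. These genes were picked for their gaps after the values were seen, and with 1 library per group the gaps cannot be tested. Across the 44 genes, which are not independent replicates, the differences of the lines had a Pearson r of 0.61 and a Spearman rho of 0.67, and across the 10071 genes measured in both lines 0.61 and 0.60. The points share the 4 libraries and their scaling.

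**Figure D3:**
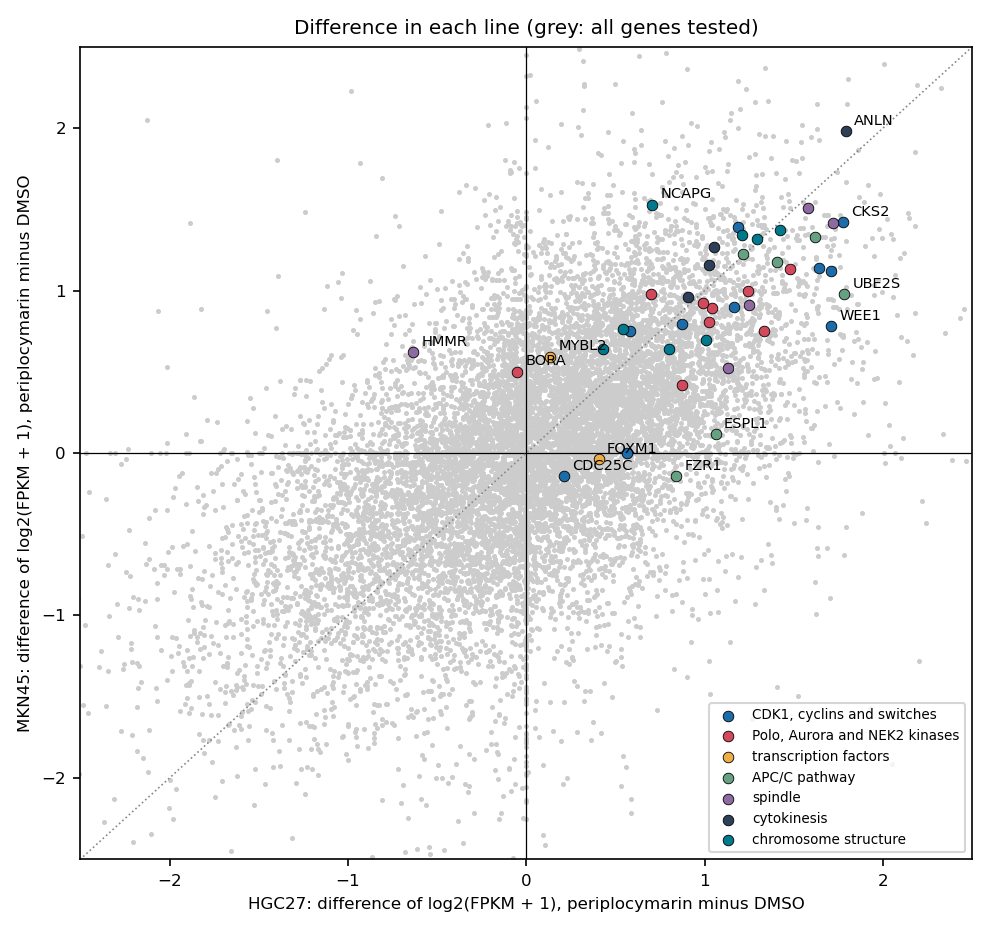
Difference of log2(FPKM + 1), periplocymarin minus DMSO, in HGC27 (horizontal) against MKN45 (vertical), each point a gene. Coloured points are the 44 mitotic genes by role, grey points all genes tested (those beyond 2.5 either way are not drawn), and the dotted diagonal marks equal differences. HMMR and BORA lie at the upper left, CDC25C, FOXM1 and FZR1 at the lower right, and the other 39 at the upper right.

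Starting levels in the vehicle libraries were close for most of these genes. Vehicle HGC27 was at least 2-fold above vehicle MKN45 for 6 of 44 genes and at least 2-fold below it for 1, against 14.3% and 17.4% of 13031 genes. The 6 were CKS2, which stood at 289.9 FPKM in vehicle HGC27 and 58.4 FPKM in vehicle MKN45, DLGAP5, AURKB, NCAPG, SMC2 and CDCA8. The 1 lower gene was ECT2, at 22.2 FPKM in vehicle HGC27 and 90.2 FPKM in vehicle MKN45. With quantile normalization 11 genes were at least 2-fold above and 1 below.

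Level bore on these differences in the whole table. Genes at a mean of 1 to 3 FPKM over the 4 libraries had a median fitted value of -0.29, and genes at 30 to 100 FPKM a median of 0.52, while the 307 genes above 100 FPKM were lower again at 0.35. The 44 genes lie mostly in the upper bands. In the band of 30 to 100 FPKM, 14 of 24 mitotic genes rose, against 12.3% of all 1096 genes in it, and above 100 FPKM 4 of 5 rose, against 8.79% of 307. In the band of 10 to 30 FPKM 0 of 10 rose, against 6.39% of 3050 genes, although 8 of these 10 lay above the band's median. Summed over bands, 40 of 44 mitotic genes lay above the median of all genes in their own band and 29 of 44 above its upper quartile. Within the 44, the fitted value went with log2(mean FPKM + 1) at a Pearson r of 0.67, against 0.36 over all genes tested, and with log2 gene length at -0.16, against 0.12. The part of the level trend in the counts above was not tested.

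**Figure D4:**
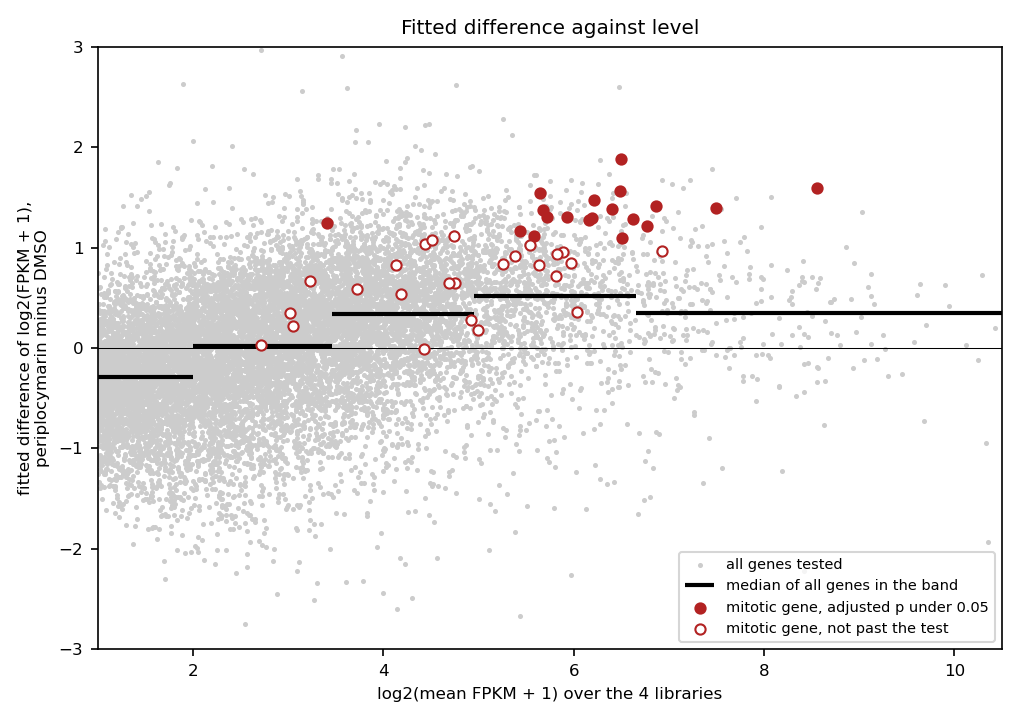
Fitted difference of log2(FPKM + 1), periplocymarin minus DMSO, against log2(mean FPKM + 1) over the 4 libraries, each point a gene. Red points are mitotic genes, filled where the adjusted p is under 0.05, grey points are all genes tested (those beyond 3 either way or past the right edge are not drawn), and black bars are the medians of all genes in 5 level bands. Of the mitotic genes, 40 of 44 lie above the black bar of their band.

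Genes of the same pathways outside the 44 were taken from 7 lists. Among all genes tested 3.43% were called higher and 3.17% lower, and 8.02% and 1.82% from 10 FPKM up. In lists this short, 1 gene called is not read as a result about the list. Of 15 core subunits and inhibitors of the anaphase-promoting complex, none rose and 1 fell, with a median fitted value of 0.17. The gene that fell was ANAPC16, a small core subunit, at 5.81 FPKM in treated and 16.1 FPKM in vehicle HGC27, and 8.32 FPKM in treated and 25.5 FPKM in vehicle MKN45, with a fitted value of -1.42 ± 0.28 (limma adjusted p = 0.027). Of 14 mitotic phosphatase and Greatwall pathway genes 1 rose, the PP2A scaffold PPP2R1B by 1.11 ± 0.28, with a list median of 0.63. Of 16 condensin II and cohesin genes 1 rose, the cohesin protector SGO2 by 1.15 ± 0.28, with a list median of 0.67. None fell in either of these lists.

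Of 17 other cytokinesis genes 4 rose and none fell, with a median of 0.60. All 4 were kinesins of the central spindle and midbody: KIF20A by 1.58 ± 0.28, KIF23, the motor of centralspindlin, by 1.47 ± 0.28, KIF4A by 1.39 ± 0.27 and KIF14 by 1.08 ± 0.28 (limma adjusted p = 0.0496). KIF23 was at 42.4 FPKM in treated and 16.7 FPKM in vehicle HGC27, and 43.7 FPKM in treated and 13.3 FPKM in vehicle MKN45. Of 14 other mitotic kinases and CDK-activating kinase genes 3 rose and none fell, with a median of 0.78: the checkpoint kinases BUB1B by 1.56 ± 0.28 and BUB1 by 1.36 ± 0.27, and NEK7 by 1.33 ± 0.27, which besides its mitotic role is a component of the NLRP3 inflammasome.

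Of 14 tested DREAM, MuvB and NF-Y genes, a list that also holds E2F and pocket protein genes, 1 rose and none fell, with a median of 0.086. That gene was LIN52, the MuvB subunit whose phosphorylation brings in the p130 pocket protein, at 18.5 FPKM in treated and 7.63 FPKM in vehicle HGC27, and 9.44 FPKM in treated and 2.88 FPKM in vehicle MKN45, by 1.30 ± 0.28 (limma adjusted p = 0.0337). The p130 gene RBL2 was lower in both lines without passing (-0.92 ± 0.28, limma adjusted p = 0.0753). It was at 3.67 FPKM in treated and 8.80 FPKM in vehicle HGC27, and 9.81 FPKM in treated and 17.5 FPKM in vehicle MKN45. MYBL1 was below the level needed for the test. Of 11 tested G2 brake and checkpoint genes 1 rose and none fell, with a median of 0.35. It was claspin (CLSPN), the adaptor through which ATR activates CHK1, by 1.31 ± 0.29 (limma adjusted p = 0.0342), and CDKN1C was below the level needed.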

How the data were processed

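The authors deposited 1 table of 62710 Ensembl genes by 4 libraries, and per the submitters' processing notes hg38, HISAT2 2.1.0 and fastp 2.0 were used, in roles not stated. The header gives no unit. The authors deposited FPKM as far as the values show: for 7756 genes, values times GENCODE 29 exon length were whole multiples of 1 step per library. Whole reads (tolerance 0.0001) were recovered for 20298 of 20299 genes above 0 in at least 3 libraries, those 7756 at the GENCODE 29 length and the rest at a length searched for so as to give whole reads, which makes their match partly one of construction. Implied library sizes over recovered totals were 0.949 and 1.21 for treated and vehicle HGC27, and 0.866 and 1.01 for treated and vehicle MKN45, so the deposited FPKM carry a composition factor, an inference from the values. For the counter, annotation and strand setting nothing is stated in the sources used here.

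Groups came from the sample titles. Limma-trend 3.58.1 (R 4.3.3) modelled log2(FPKM + 1) on treatment and cell line, since the same line links its 2 libraries. Genes averaging 1 FPKM and 10 recovered reads or more entered, and p-values were adjusted over all genes tested. Within a line there is no test, and a gene was called at a difference of at least 1. Clopper-Pearson intervals used scipy 1.17.1. Named with values were genes past the test, the extremes of each role, genes with a difference below 0 in a line, and others where their role needed it. From each pathway list, genes past the test were named. Members, roles and lists were chosen with earlier results of these data known. Library read totals as a scaling were added after seeing the data. So were the library sizes of limma-voom, set to those the FPKM imply after a run with TMM factors, which called fewer of the 44 genes and, over all genes, more lower than higher, had been seen. P-values draw mostly on the variance of other genes and otherwise on how far the differences of the 2 lines disagree. No replicate spread within a line enters them, and the spread they hold may be technical. Overlaps with other gene models and symbols of pseudogenes came from GENCODE 29 and the symbol table.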

Additional observations from a re-analysis of the deposited data

Results flagged for a closer look

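In 5 of the 44 genes the treated library was above vehicle in one line and below it in the other, against 27.1% of the 10071 genes measured in both lines. The difference between the lines was not tested, since each group is 1 library. As the HGC27 difference minus the MKN45 difference of log2(FPKM + 1), the values were -1.25 for HMMR, -0.55 for BORA, 0.98 for FZR1, 0.44 for FOXM1 and 0.35 for CDC25C. At the deposited scaling, the counting intervals of HMMR and of FZR1 lay on opposite sides of 0 in the lines. For BORA, FOXM1 and CDC25C the interval included 0 in the line where the gene was lower. Another scaling would shift these intervals, and the FZR1 interval in MKN45 reached up to -0.028, close to 0. BORA overlaps DIS3, FZR1 overlaps MFSD12 and CDC25C overlaps FAM53C, and the part of these neighbours' reads in the values was not tested.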

How the results depend on the processing

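Counts of the 44 genes that rose were 27 with a pseudocount of 0.1, 20 with the same total of values per library, 18 with library read totals, 28 with limma-voom on recovered reads, 30 of 39 at a floor of 10 FPKM, 6 with quantile normalization, and 0 when low genes were kept in or with no replicate block (no cell line term), against 19, and none fell under any of these. Of the 19, all 19 were also called with the pseudocount of 0.1 and with limma-voom, 18 with library read totals, with the same total and at the floor (WEE1 is below it), and 6 with quantile normalization. With no block 0 genes of the table passed, at 696 unadjusted limma p-values under 0.05, and with no filter 0 passed, at 4306, the first fit leaving the line difference in the residual and the second adding low genes; the cause was not tested further. No paired analysis by replicate number was possible because the labels carry none, and the block is the cell line. The median fitted value was 0.60 with quantile normalization and 0.76 with library read totals, against 1.04, and 0.92 to 1.06 leaving out either line, where no test remains. Library read totals moved the median of all genes by -0.22. Of all 12353 genes tested, 424 rose and 392 fell (52.0% upward), 369 and 1180 with library read totals (23.8%), 180 and 351 with quantile normalization (33.9%), and 750 and 730 with the pseudocount of 0.1. The same total of values per library gave 396 and 289 (57.8%). Limma-voom at the library sizes the FPKM imply gave 951 and 694 of 12060 genes (57.8%), and with TMM factors more fell than rose. At the floor 1055 rose and 199 fell of 4453 genes (84.1%).

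Genes at least 2-fold higher in HGC27 numbered 9 with quantile normalization and 13 with library read totals, against 27, and 1 gene was lower by that much with quantile normalization and 1 by 1.5-fold, against 0. In MKN45 they numbered 8 and 11 under the same scalings and 36 at 1.5-fold, against 17. With the same total of values per library there were 20 in HGC27 and 25 in MKN45, which turns the order of the lines. Between vehicle libraries 16 genes were 1.5-fold higher in HGC27 and 11 at 2-fold with quantile normalization, against 6, and 2 were 1.5-fold lower, against 1. Shares of all genes at these settings are not given, so these counts describe the 44 alone. With quantile normalization the median difference of the 44 was 0.59 in HGC27 and 0.60 in MKN45. Genes that averaged 10 FPKM or more had 0.064 and 0.062. With library read totals the medians were 0.73 and 0.70 for the 44, and 0.10 and 0.12 for those genes. Fitted values turned with quantile normalization for CDC25B (-0.15), FOXM1 (-0.25) and MYBL2 (-0.12), with library read totals for CDC25C (-0.21), FOXM1 (-0.093) and BORA (-0.030), and with limma-voom for HMMR (0.012), none of which passed in any of these fits. The cause of the moves under other scalings was not tested. The sign of BORA in HGC27 and of CDC25B, CDC25C and FOXM1 in MKN45 was not resolved, as the counting interval included 0. That interval is at the deposited scaling, other scalings shift the differences of all genes, and each group is a single library.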
